A study of Mus musculus with 6 samples.

Results

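The genes described here are the potassium channel genes, taken as every gene on the array whose symbol starts with Kcn and that has a probe set annotated to it alone. There were 84 such genes, read by 167 probe sets, among 18193 genes with a single-gene probe set. Gene expression was measured in bladder epithelium of mice at postnatal day 7, with 3 arrays of DsRed-positive cells and 3 of DsRed-negative cells, numbered 1, 2 and 5 in both groups. All 6 samples carry the same further labels: males of the strain FVB/N x C57BL/6, with the Upk1b line B6;129P-Upk1btm1Zhang/J as the reported gene, not pooled. The labels state neither what drives DsRed nor how the cells were parted, nor whether each sample is its own animal; p-values therefore speak for these samples, whose spread may be technical.

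Potassium channels let potassium leave or enter a cell along its gradient and so set the resting voltage of the membrane. The family holds voltage-gated channels, calcium- and sodium-activated channels, inward rectifiers and tandem-pore leak channels, and several of them need auxiliary subunits that change how they open. In the bladder they are best known for holding the smooth muscle of the wall quiet between contractions, and in epithelia for the driving force of salt and water transport. Some Kcn symbols name auxiliary proteins or RNA genes and not pores.

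Epithelial markers, which the label of both groups calls for, were present on all 6 arrays, beside markers of the bladder wall in the DsRed-negative cells. The deposited signal of Upk1b, a plaque protein of the urothelial surface, reached 48415, 98990 and 94871 in DsRed-positive cells (arrays 1, 2 and 5), against 9626, 4515 and 2797 in DsRed-negative cells. The change was 4.27 ± 0.48 on the log2 scale (adjusted p = 0.00105). All 4 epithelial markers (Cdh1, Epcam, Krt8, Krt18) were higher in DsRed-positive cells, with a summed deposited signal of 196453 to 333383 in DsRed-positive and 33555 to 80510 in DsRed-negative arrays. So were all 6 superficial urothelial markers (145665 to 256603, against 6994 to 19202) and all 3 basal ones (31073 to 36128, against 4266 to 7195). All 6 fibroblast and matrix markers and all 5 leukocyte markers were lower, as were 4 of 5 tested smooth muscle markers and 3 of 4 tested endothelial ones. The smooth muscle sum was 1950 to 2830 in DsRed-positive and 96641 to 187415 in DsRed-negative arrays, and the fibroblast sum was 13894 to 26643 in DsRed-positive and 547843 to 1364566 in DsRed-negative arrays. The leukocyte sum was 1890 to 3221 in DsRed-positive and 25848 to 39511 in DsRed-negative arrays, and the endothelial sum 944 to 1017 in DsRed-positive and 6979 to 11718 in DsRed-negative arrays. No defining marker was at 0, and Cnn1 alone of the smooth muscle list was at or below the control level on all 3 DsRed-positive arrays. The same 2 groups thus differed in most of these markers and in the called channel genes. The part of the markers in the channel differences was not tested. In RNA from many cells, fewer cells of a type and less RNA per cell cannot be told apart. Both arrays numbered 1 went against the label of male sex: Xist, the RNA of the inactive X chromosome, had a log2 signal of 15.08 in DsRed-positive 1 and 15.48 in DsRed-negative 1, against 8.08 to 8.89 on the other 4 arrays, and the Y-linked Eif2s3y was 6.32 in DsRed-positive 1 and 5.44 in DsRed-negative 1, against 11.78 to 12.93 on the others. Results are therefore also given without both arrays numbered 1.

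Signals are given as log2 values after an offset and quantile normalization, and a change is the DsRed-positive mean minus the DsRed-negative mean. A signal was judged against the control level, the 95th percentile of 27 control probe sets on the same array, which lay at 7.41 to 7.56 in DsRed-positive and 7.69 to 8.03 in DsRed-negative arrays. Of the 84 genes, 51 passed the filter on dim probe sets and were tested. The other 33 did not pass, and none of them had all 3 arrays of a group above the control level, while 14 had no array above it.

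Of the 51 tested genes 13 were called, against 20.5% of all genes tested. Among them, 4 were higher in DsRed-positive cells (Kcnj15, Kcnk1, Kcne1 and Kcnn4) and 9 were lower (Kcnk2, Kcnd3, Kcnc2, Kcnj8, Kcne4, Kcnq5, Kcnk6, Kcnd1 and Kcnq3), by limma with Benjamini-Hochberg adjustment over all probe sets and a threshold of 0.05. By direction, higher calls made up 7.84% of the tested channel genes, against 9.21% of all 14222 genes tested, and lower calls 17.6%, against 11.3%. The median change was -0.38 over the 51 genes and 0.04 over all genes. These shares describe genes that passed the filter, and a gene that passed it only through its high group had to differ. Among the called genes, 4 lower ones (Kcnc2, Kcnj8, Kcnq5 and Kcnq3) and 2 higher ones (Kcnj15 and Kcne1) were of this kind. Each was at or below the control level on all arrays of its low group, whose mean lay under the filter cutoff of 7.18. The direction of their change was therefore fixed by the filter. The arrays of both groups lay apart for 4 higher genes (7.84%, against 22.0% of all genes) and 12 lower ones (23.5%, against 21.4%). By class, 5 of 18 tested voltage-gated pore genes were lower and none higher, while the inward rectifiers, the tandem-pore channels and the voltage-gated auxiliary subunits each held a gene of either direction. Without both arrays numbered 1, 3 channel genes were higher and 8 lower, against 3.41% and 5.33% of all genes, and 9 of the 13 calls remained; those lost were Kcnk1, Kcne1, Kcnd1 and Kcnq3.

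**Figure D1:**
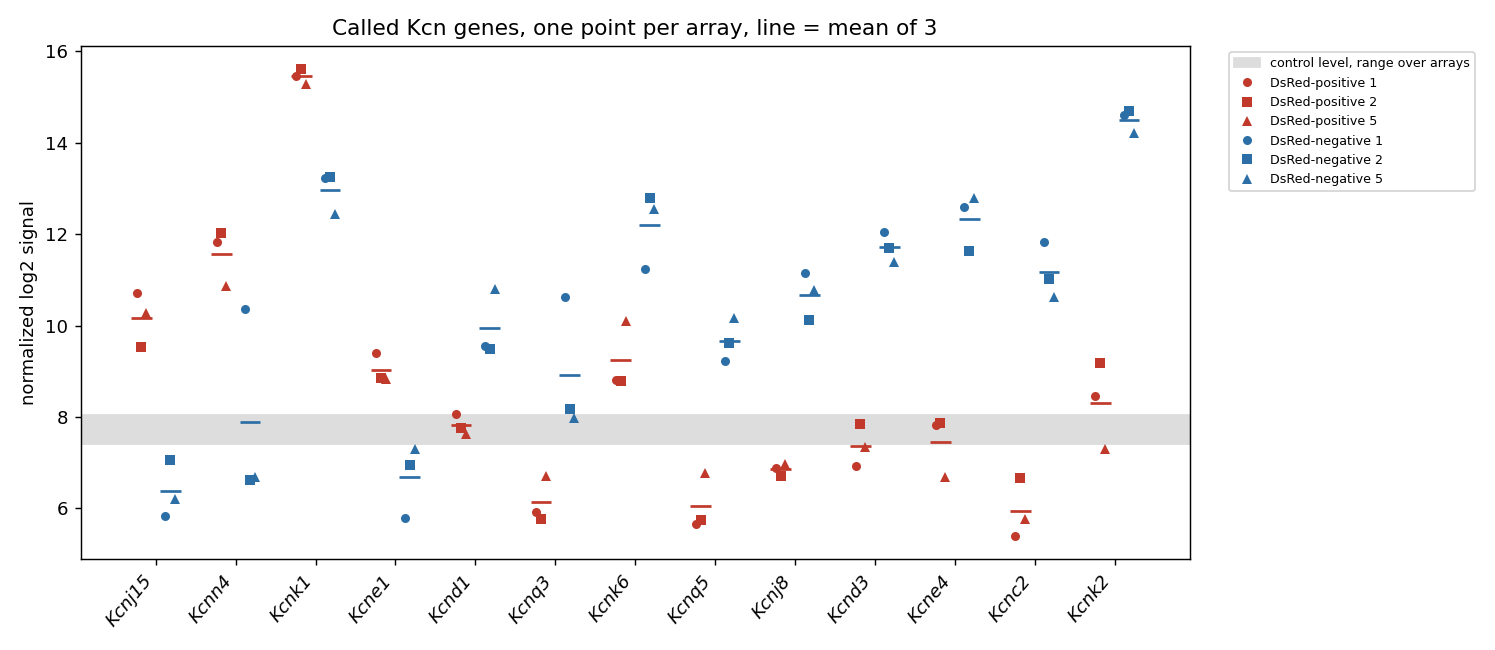
Normalized log2 signal (y axis) of the 13 called potassium channel genes (x axis), DsRed-positive arrays in red and DsRed-negative arrays in blue, with a point for each of the 3 arrays, a line at the mean and the range of the control level in grey. No gene's groups overlap, Kcnk1 lies at 15.29 to 15.61 in DsRed-positive and 12.44 to 13.25 in DsRed-negative arrays, and DsRed-negative 1 stands apart from its group for Kcnn4 and Kcnq3.

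Of 10 tested tandem-pore leak channels, 1 was higher, 2 were lower and 7 were not called. Kcnk1, a leak channel of the TWIK type found in many epithelia, had log2 signals of 15.46, 15.61 and 15.29 in DsRed-positive arrays 1, 2 and 5, against 13.23, 13.25 and 12.44 in DsRed-negative arrays. It was well above the control level in both groups, and every DsRed-positive array exceeded every DsRed-negative one. The change was 2.48 ± 0.36 (SE), or 5.58-fold (adjusted p = 0.0034), and its second probe set gave 2.43 ± 0.38 (adjusted p = 0.00456). Without both arrays numbered 1 the change was 2.60, with an adjusted p = 0.0508. Kcnk2, the stretch- and lipid-sensitive leak channel of the TREK type, went the other way with the widest gap of the family: 8.46, 9.18 and 7.31 in DsRed-positive arrays, against 14.60, 14.69 and 14.22 in DsRed-negative arrays. Its DsRed-positive mean was 8.31 ± 0.94 (SD, n = 3) and its DsRed-negative mean 14.50 ± 0.25, a change of -6.19 ± 0.51, or 72.9-fold lower (adjusted p = 0.000293, and 0.021 without both arrays numbered 1). The DsRed-positive 5 value lay below the control level, and the other 2 lay above it. Kcnk6, another channel of the TWIK type, had 8.81, 8.80 and 10.11 in DsRed-positive arrays, against 11.23, 12.80 and 12.55 in DsRed-negative arrays. Both groups were above the control level, and the change was -2.95 ± 0.56, or 7.74-fold lower (adjusted p = 0.0107), with an adjusted p = 0.0553 without DsRed-positive 1. Kcnk5, a pH-sensitive leak channel of kidney epithelium, was above the control level on all 6 arrays but its groups overlapped, with 11.12, 11.09 and 10.34 in DsRed-positive arrays, against 10.35, 8.47 and 10.68 in DsRed-negative arrays (change 1.02 ± 0.61, adjusted p = 0.301).

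Among the inward rectifiers, which pass potassium more easily into the cell than out, Kcnj15 was higher and Kcnj8 lower. Kcnj15, an inward rectifier of kidney and other epithelia, had 10.71, 9.53 and 10.27 in DsRed-positive arrays, against 5.84, 7.07 and 6.21 in DsRed-negative arrays. All 3 DsRed-negative values were at or below the control level, so Kcnj15 was at least 5.12-fold higher in DsRed-positive cells (change 3.79 ± 0.47, adjusted p = 0.00163, and 0.0396 without both arrays numbered 1). Of its other probe sets, 1 was tested and gave 0.12 (adjusted p = 0.872). Kcnj15 and Kcnk1 were the 2 higher genes whose call held in all 6 fits that left out 1 array. Their promoters are shown here for that reason, as RefSeq gives them on GRCm38.p6, from 250 bases before to 50 after the start of transcription.
Kcnj15, chr16:95257308-95257607, + strand: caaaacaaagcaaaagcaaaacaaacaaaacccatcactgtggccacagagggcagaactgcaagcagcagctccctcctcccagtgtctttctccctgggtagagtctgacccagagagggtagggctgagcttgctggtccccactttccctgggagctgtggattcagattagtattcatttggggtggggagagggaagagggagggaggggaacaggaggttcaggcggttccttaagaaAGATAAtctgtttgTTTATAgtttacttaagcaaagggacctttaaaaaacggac
Kcnk1, chr8:125994852-125995151, + strand: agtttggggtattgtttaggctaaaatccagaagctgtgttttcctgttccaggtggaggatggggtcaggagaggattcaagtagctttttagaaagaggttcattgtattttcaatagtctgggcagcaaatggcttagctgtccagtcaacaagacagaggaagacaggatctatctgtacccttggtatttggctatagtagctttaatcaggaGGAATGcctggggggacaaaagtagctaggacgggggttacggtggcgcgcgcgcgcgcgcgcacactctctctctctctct
Capitals mark matches on either strand to 5 motifs, none of which overlap in these windows. They are TATAAA for the box of that name, GGGCGG for Sp1 factors, GGAATG for TEAD factors, AGATAA for GATA factors and TGANTCA for AP-1. Kcnj15 holds AGATAA and, after the start and on the reverse strand, the first motif, printed there as TTTATA; these motifs occur in 11.2% and 13.6% of all 32851 promoters of this length. Kcnk1 holds GGAATG, which occurs in 14.7% of them. The G and C content was 49.7% for Kcnj15 and 49.0% for Kcnk1, against a median of 52.7% over all promoters, and a CG pair occurred 2 times in Kcnj15 and 10 times in Kcnk1, against a median of 7. These matches are descriptions of the sequence.

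Kcnj8 encodes the pore of the ATP-sensitive potassium channel of vascular smooth muscle and pericytes, which opens when cell energy falls. It had 6.89, 6.70 and 6.98 in DsRed-positive arrays, all at or below the control level, against 11.15, 10.12 and 10.77 in DsRed-negative arrays. The gene was at least 9.12-fold lower in DsRed-positive cells (change -3.82 ± 0.38, adjusted p = 0.000604). Abcc9, the sulfonylurea receptor that joins this pore, had 7.07, 6.46 and 7.57 in DsRed-positive arrays, against 11.62, 10.71 and 10.90 in DsRed-negative arrays (change -4.04 ± 0.43, 16.5-fold lower, adjusted p = 0.000838). Of its DsRed-positive values only that of array 5 was above the control level. The Abcc9 fold is the plain ratio, which for Kcnj8 was 14.1, and not a bound. Of the 3 Abcc9 probe sets, 2 were called, both lower. Of 4 mural cell markers, Pdgfrb (-6.63 ± 0.43) and Cspg4 (-2.75 ± 0.35) were lower and Rgs5 (1.56 ± 0.43) was higher, with a median change of -1.71. Their summed deposited signal was 43183 to 53541 in DsRed-positive and 26756 to 41898 in DsRed-negative arrays, most of which in DsRed-positive cells was Rgs5 alone (41325 to 50648 in DsRed-positive and 11231 to 24132 in DsRed-negative arrays). In the annotation of GRCm38.p6 the genes are neighbours on chromosome 6 with 0 protein-coding genes between them, and both lie on the minus strand. Their promoters are shown as those of the 2 subunits of this channel, with the same motifs in capitals.
Kcnj8, chr6:142571565-142571864, - strand: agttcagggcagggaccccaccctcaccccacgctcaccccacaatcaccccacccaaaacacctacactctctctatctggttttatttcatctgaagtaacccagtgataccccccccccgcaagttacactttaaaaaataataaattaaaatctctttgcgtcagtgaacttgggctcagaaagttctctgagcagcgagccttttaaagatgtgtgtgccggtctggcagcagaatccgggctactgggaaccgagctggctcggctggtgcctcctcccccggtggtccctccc
Abcc9, chr6:142702225-142702524, - strand: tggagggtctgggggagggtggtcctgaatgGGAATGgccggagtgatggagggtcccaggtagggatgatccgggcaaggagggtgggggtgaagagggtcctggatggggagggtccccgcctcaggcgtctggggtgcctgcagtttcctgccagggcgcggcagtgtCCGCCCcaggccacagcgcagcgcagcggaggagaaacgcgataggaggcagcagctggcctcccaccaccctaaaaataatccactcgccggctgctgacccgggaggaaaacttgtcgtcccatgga
The Kcnj8 window holds none of the 5 motifs. The Abcc9 window holds GGAATG and, on the reverse strand, the Sp1 motif, printed there as CCGCCC, which occurs in 35.7% of all promoters. The G and C content was 53.3% for Kcnj8 and 65.7% for Abcc9, with 9 and 16 CG pairs. The other ATP-sensitive pair did not pass the test: Kcnj11, the pore of pancreatic islet and heart muscle channels, had 9.81, 9.95 and 10.18 in DsRed-positive arrays, against 9.08, 10.91 and 10.92 in DsRed-negative arrays (change -0.33 ± 0.54, adjusted p = 0.723), and its receptor Abcc8, mostly below the control level, had 6.61, 7.65 and 5.96 in DsRed-positive arrays, against 7.70, 7.14 and 8.36 in DsRed-negative arrays (adjusted p = 0.243). Kcnj11 was above the control level on all 6 arrays, and its DsRed-negative arrays lay on both sides of the DsRed-positive ones. Kcnj6, a G-protein-gated rectifier and the neighbour of Kcnj15 on chromosome 16, had 8.03, 8.70 and 8.91 in DsRed-positive arrays, against 8.96, 8.61 and 8.75 in DsRed-negative arrays. The groups overlapped (change -0.23 ± 0.36, adjusted p = 0.709).

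All 5 called pore genes of the voltage-gated class were lower in DsRed-positive cells. For Kcnc2, Kcnq5 and Kcnq3 this direction was fixed, as they passed the filter only through their DsRed-negative arrays. Kcnd3, a rapidly inactivating channel of heart and smooth muscle, had 6.94, 7.84 and 7.35 in DsRed-positive arrays, against 12.06, 11.69 and 11.40 in DsRed-negative arrays. The change was -4.34 ± 0.38, or 20.3-fold lower (adjusted p = 0.00039), with 1 of 3 DsRed-positive arrays above the control level. Its other tested probe set gave 0.02 (adjusted p = 0.984), so the probe sets of Kcnd3 did not all move alike. Kcnd1 belongs to the same family of inactivating channels and had 8.06, 7.76 and 7.64 in DsRed-positive arrays, against 9.55, 9.50 and 10.80 in DsRed-negative arrays. Every array was above its control level and the groups did not overlap (change -2.13 ± 0.44, 4.37-fold lower, adjusted p = 0.0152). A second Kcnd1 probe set gave 0.42 (adjusted p = 0.653), and the call was lost in 3 of the 6 fits without 1 array, with an adjusted p of up to 0.0611 without DsRed-positive 5. Without both arrays numbered 1 the change was -2.45, with an adjusted p = 0.0857.

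Kcnc2, a fast delayed rectifier best known from fast-spiking neurons, had 5.40, 6.66 and 5.77 in DsRed-positive arrays, all at or below the control level, against 11.83, 11.03 and 10.63 in DsRed-negative arrays. It was at least 12.7-fold lower (change -5.22 ± 0.48, adjusted p = 0.000455, and 0.0183 without both arrays numbered 1). Of 5 tested nerve and Schwann cell markers, Uchl1 was higher and the other 4 were not called, with a median change of -0.73. Their summed deposited signal was 11046 to 14050 in DsRed-positive and 1831 to 2775 in DsRed-negative arrays, and Uchl1 alone made up 10190 to 13437 of it in DsRed-positive and 295 to 476 in DsRed-negative arrays. Kcnq5 and Kcnq3 belong to the family that carries the M-current, a slow brake on excitation in neurons and smooth muscle. Kcnq5 had 5.65, 5.75 and 6.77 in DsRed-positive arrays, again at or below the control level, against 9.22, 9.62 and 10.16 in DsRed-negative arrays. The bound was at least 4.51-fold lower (change -3.61 ± 0.44, adjusted p = 0.00153). Kcnq3 had 5.93, 5.77 and 6.70 in DsRed-positive arrays, against 10.62 in DsRed-negative 1 and 8.17 and 7.97 in DsRed-negative 2 and 5, of which the last was below the control level. It was at least 2.69-fold lower (change -2.79 ± 0.72, adjusted p = 0.0363), but without both arrays numbered 1 the change was -1.83 (adjusted p = 0.115), with the number as a block the adjusted p was 0.0551, and without DsRed-positive 1 it was 0.126. The second Kcnq3 probe set was also lower, with 6.62, 5.52 and 6.67 in DsRed-positive and 8.27, 8.50 and 8.39 in DsRed-negative arrays (change -2.11 ± 0.41, adjusted p = 0.0113). Kcnq1, the epithelial and heart member of the same family, was not tested because it was too dim, with 1 array above the control level.

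Kcnh3, an ether-a-go-go-type channel of forebrain, and Kcna7, a Shaker-type channel of muscle, were the brightest voltage-gated pore genes that were not called. Kcnh3 had 8.43, 8.93 and 8.78 in DsRed-positive and 9.06, 9.87 and 8.91 in DsRed-negative arrays (change -0.57 ± 0.38, adjusted p = 0.357). Kcna7 had 8.13, 8.66 and 8.44 in DsRed-positive and 7.33, 9.78 and 9.10 in DsRed-negative arrays (change -0.33 ± 0.62, adjusted p = 0.761). On these probe sets the groups overlapped for both genes. Of the 4 tested Kcnh3 probe sets none was called, but 1 had its groups apart. It had 7.95, 8.36 and 8.43 in DsRed-positive and 8.89, 10.09 and 9.15 in DsRed-negative arrays (change -1.13 ± 0.41, adjusted p = 0.107). The others gave -0.52 (adjusted p = 0.577) and 0.06 (adjusted p = 0.928).

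Of the auxiliary subunits of voltage-gated channels, Kcne1 was higher and Kcne4 lower. Kcne1, which slows the opening of Kcnq1 in heart and inner ear, had 9.40, 8.85 and 8.83 in DsRed-positive arrays, against 5.79, 6.96 and 7.30 in DsRed-negative arrays. All DsRed-negative values were at or below the control level, and Kcne1 was at least 2.32-fold higher (change 2.35 ± 0.47, adjusted p = 0.013). The adjusted p became 0.0647 without DsRed-positive 1 and 0.0868 without both arrays numbered 1. Kcne4, a subunit that damps several voltage-gated channels, had 7.83, 7.87 and 6.69 in DsRed-positive arrays, against 12.59, 11.64 and 12.80 in DsRed-negative arrays. It was 29.5-fold lower, with a change of -4.88 ± 0.49 (adjusted p = 0.000642, and 0.0262 without both arrays numbered 1), and 2 of its 3 DsRed-positive values were above the control level. Kcne1 and Kcnj15 lie on the same chromosome, 16.

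Calcium-activated channels open when calcium inside the cell rises and so tie calcium signals to the membrane voltage. Kcnn4, the intermediate-conductance channel of secretory epithelia, red cells and lymphocytes, was the called gene of this class, with 11.84, 12.02 and 10.87 in DsRed-positive arrays. The DsRed-negative arrays gave 10.36 in array 1 and 6.63 and 6.69 in arrays 2 and 5, the last pair below the control level. The change was 3.68 ± 0.98, or 12.8-fold (adjusted p = 0.0401), and its SE was the largest among the 13 called genes. The call was lost in 5 of the 6 fits without 1 array, with an adjusted p of up to 0.135 without DsRed-positive 1, and held without DsRed-negative 1. Without both arrays numbered 1 the change was 4.78 (adjusted p = 0.0195). DsRed-negative 1 also had the highest superficial urothelial signal of its group, a deposited sum of 19202 against 9201 and 6994 in DsRed-negative 2 and 5. Its leukocyte sum was the highest too (39511 against 25848 and 26101), and its smooth muscle sum the lowest (96641 against 184154 and 187415). Whether any of these bears on Kcnn4 was not tested. The second Kcnn4 probe set showed a smaller gap, with 9.49, 9.07 and 8.84 in DsRed-positive and 7.89, 8.31 and 7.67 in DsRed-negative arrays (change 1.17 ± 0.36, adjusted p = 0.0612).

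Kcnma1, the large-conductance channel that couples calcium release to relaxation in smooth muscle, was not called. It had 9.60, 9.57 and 10.35 in DsRed-positive arrays, against 10.69, 11.25 and 9.58 in DsRed-negative arrays, with overlapping groups (change -0.67 ± 0.50, adjusted p = 0.408). Of its 5 probe sets, 4 were tested and none was called. Kcnmb1, the smooth muscle subunit of that channel, was named after its values were seen: its change was -1.23 ± 0.69 (adjusted p = 0.266), and its second probe set gave -2.08 ± 0.80 (adjusted p = 0.122). Kcnmb4, the subunit best known from brain, had 9.54, 9.33 and 9.23 in DsRed-positive and 10.48, 9.56 and 9.73 in DsRed-negative arrays. Its groups lay just apart (change -0.56 ± 0.37, adjusted p = 0.34). Kcnt1, a sodium-activated channel named after its values were seen, was not called, at -1.82 ± 0.54 (adjusted p = 0.058), but gave -2.69 (adjusted p = 0.0339) without both arrays numbered 1.

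Kcnq1ot1, a long RNA transcribed antisense to Kcnq1 that silences neighbouring genes on the paternal chromosome, is no channel gene but falls under the symbol rule. Its brightest probe set had 9.13, 10.07 and 9.92 in DsRed-positive and 8.72, 10.81 and 9.46 in DsRed-negative arrays (change 0.04 ± 0.58, adjusted p = 0.97). Of its 6 probe sets, 4 were tested and none was called. The remaining 30 tested genes were not called, with changes from -1.82 to 1.65, of which 20 were below and 10 above 0, and none of them was above the control level on all 6 arrays. Of the 38 genes not called, 5 had an unadjusted p under 0.05.

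**Figure D2:**
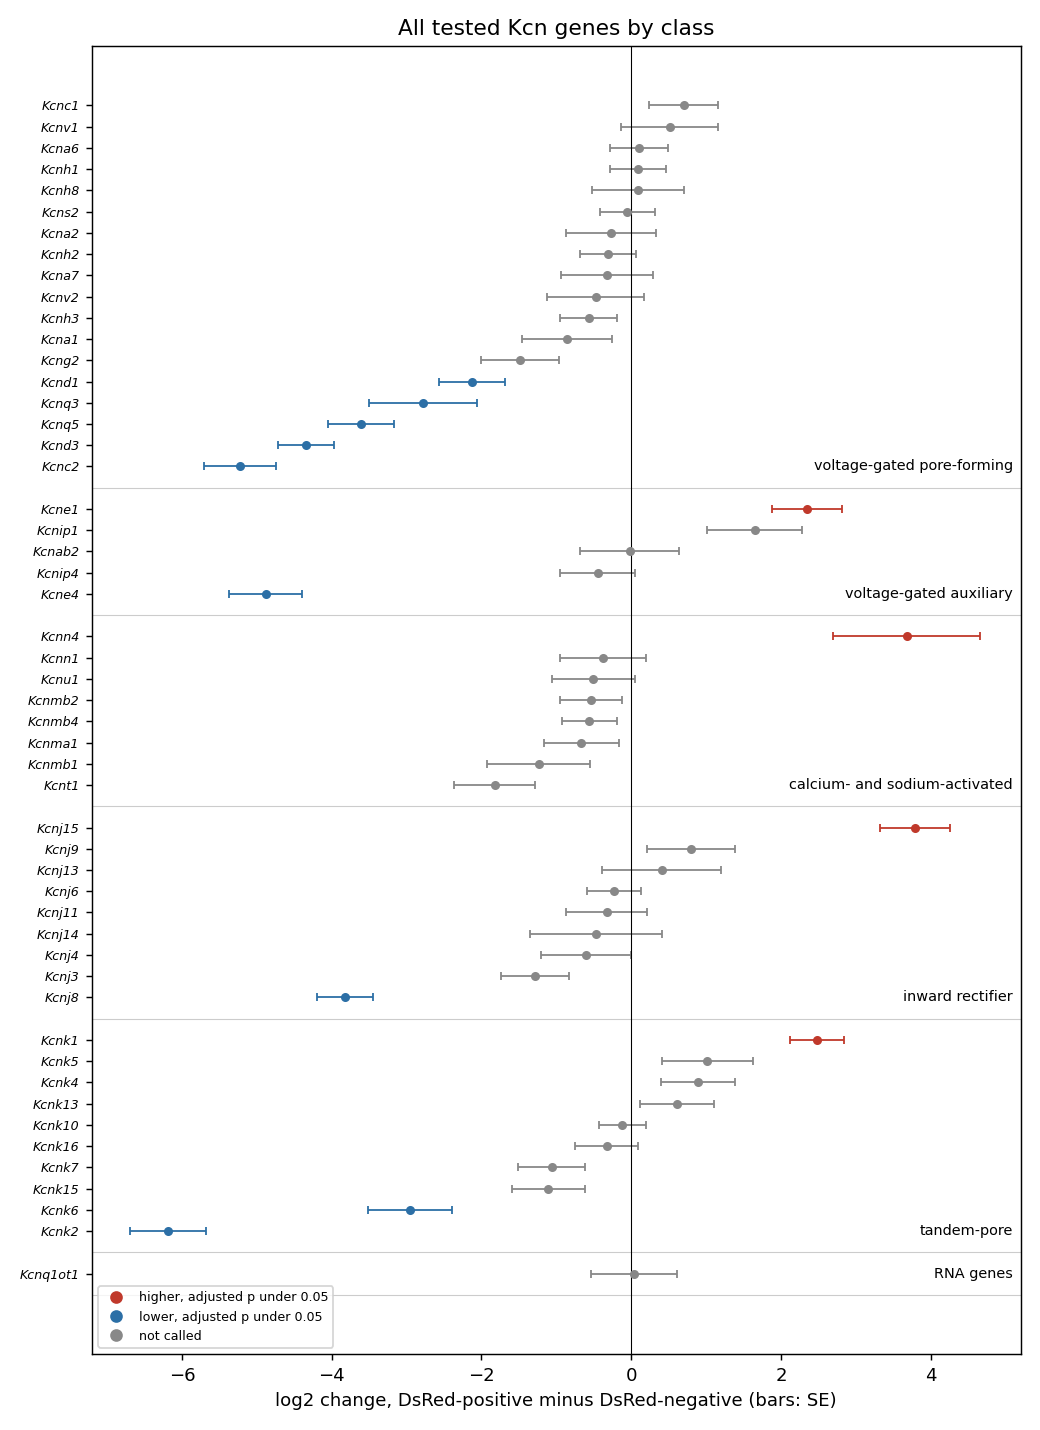
Log2 change (x axis, DsRed-positive minus DsRed-negative, bars are SE) of the 51 tested potassium channel genes (y axis), grouped by class, with higher calls in red, lower calls in blue and genes not called in grey. The 5 called voltage-gated pore genes all lie below 0, while Kcnj15 (3.79) and Kcnj8 (-3.82), Kcnk1 (2.48) and Kcnk2 (-6.19), and Kcne1 (2.35) and Kcne4 (-4.88) lie on opposite sides of it within their classes. Kcnc2, Kcnq5, Kcnq3, Kcnj8, Kcnj15 and Kcne1 passed the filter only through their high group, which fixed their side.

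Genes that work with potassium channels were read from 3 lists, whose calls stand beside 9.21% higher, 11.3% lower and 20.5% either way among all genes tested, with a median change of 0.04. Of 23 partner and regulatory genes outside the Kcn symbols, 15 were tested, with 2 higher, 3 lower and a median change of -0.55. Ank3, an ankyrin that anchors channels at defined sites of the membrane, had 13.43, 13.55 and 13.89 in DsRed-positive and 9.51, 10.03 and 9.04 in DsRed-negative arrays (change 4.09 ± 0.38, adjusted p = 0.000462). Its relative Ank2 had 7.15, 7.33 and 8.23 in DsRed-positive arrays, against 10.56, 10.81 and 11.11 in DsRed-negative arrays (change -3.26 ± 0.40, adjusted p = 0.00158). The 2 ankyrins thus lay on opposite sides, with no overlap of the groups for either. Nedd4l, a ubiquitin ligase that removes epithelial channels from the surface, changed by 2.86 ± 0.51 (adjusted p = 0.00793), with 2 of its 4 tested probe sets called, both higher. Cav1, the caveolar coat protein, changed by -4.66 ± 0.36 (adjusted p = 0.000232). Abcc9, described above, was the other lower gene.

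The sodium pump builds the potassium gradient that these channels use. Of 17 pump genes, 11 were tested, with 2 higher, 3 lower and a median change of -0.36, beside the same 9.21% and 11.3% of all genes. Atp1b1, the subunit that carries the pump to the surface, had 14.75, 14.71 and 14.21 in DsRed-positive and 13.08, 12.23 and 10.71 in DsRed-negative arrays. All 4 of its tested probe sets were higher (change 2.55 ± 0.60, adjusted p = 0.0255), though the adjusted p was 0.1 without DsRed-positive 1 and 0.0728 without both arrays numbered 1. Of the FXYD proteins, small regulators of the pump, Fxyd3 was higher and Fxyd1, Fxyd5 and Fxyd6 were lower, while Fxyd2 (adjusted p = 0.619) and Fxyd4 (adjusted p = 0.835) were not called and Fxyd7 was not tested. Fxyd3, the epithelial form, had 13.92, 14.28 and 14.06 in DsRed-positive and 11.36, 10.40 and 10.59 in DsRed-negative arrays (change 3.30 ± 0.37, adjusted p = 0.00113). Fxyd1, the form of heart and smooth muscle, was at or below the control level in DsRed-positive cells and at least 8.46-fold lower (change -4.54 ± 0.34, adjusted p = 0.000202). Fxyd5 and Fxyd6 changed by -3.70 ± 0.42 and -2.23 ± 0.42 (adjusted p = 0.00114 and 0.00997), the second with an adjusted p = 0.0519 without DsRed-positive 1 and 0.103 without both arrays numbered 1.

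Calcium channels supply the signal that calcium-activated potassium channels read. Of 25 calcium entry and store-release genes, 18 were tested, with 2 higher, 2 lower and a median change of -0.50; the 4 calls are near the 20.5% called either way among all genes. Trpv4, a stretch- and osmotically sensitive channel known from urothelium, had 9.47, 9.75 and 9.35 in DsRed-positive arrays, against 7.44, 7.49 and 6.22 in DsRed-negative arrays. It was at least 3.28-fold higher, as its DsRed-negative values were at or below the control level (change 2.47 ± 0.43, adjusted p = 0.00747, and 0.0711 without both arrays numbered 1). Cacna1g, a low-voltage calcium channel of excitable cells, was at least 4.1-fold lower (change -3.26 ± 0.42, adjusted p = 0.00201). The store-release channel Ryr2, at or below the control level on all 3 DsRed-negative arrays, was at least 1.43-fold higher (change 2.12 ± 0.47, adjusted p = 0.0202, and 0.175 without both arrays numbered 1). Trpc1, a calcium entry channel with 1 of 2 tested probe sets called, changed by -3.82 ± 1.01 (adjusted p = 0.039). Both calls were lost without single arrays: Ryr2 reached an adjusted p = 0.089 without DsRed-positive 1 and Trpc1 0.128 without DsRed-positive 5. Piezo1, the stretch-gated channel, was named after its values were seen and was not called (change -1.08 ± 0.33, adjusted p = 0.0626).

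**Figure D3:**
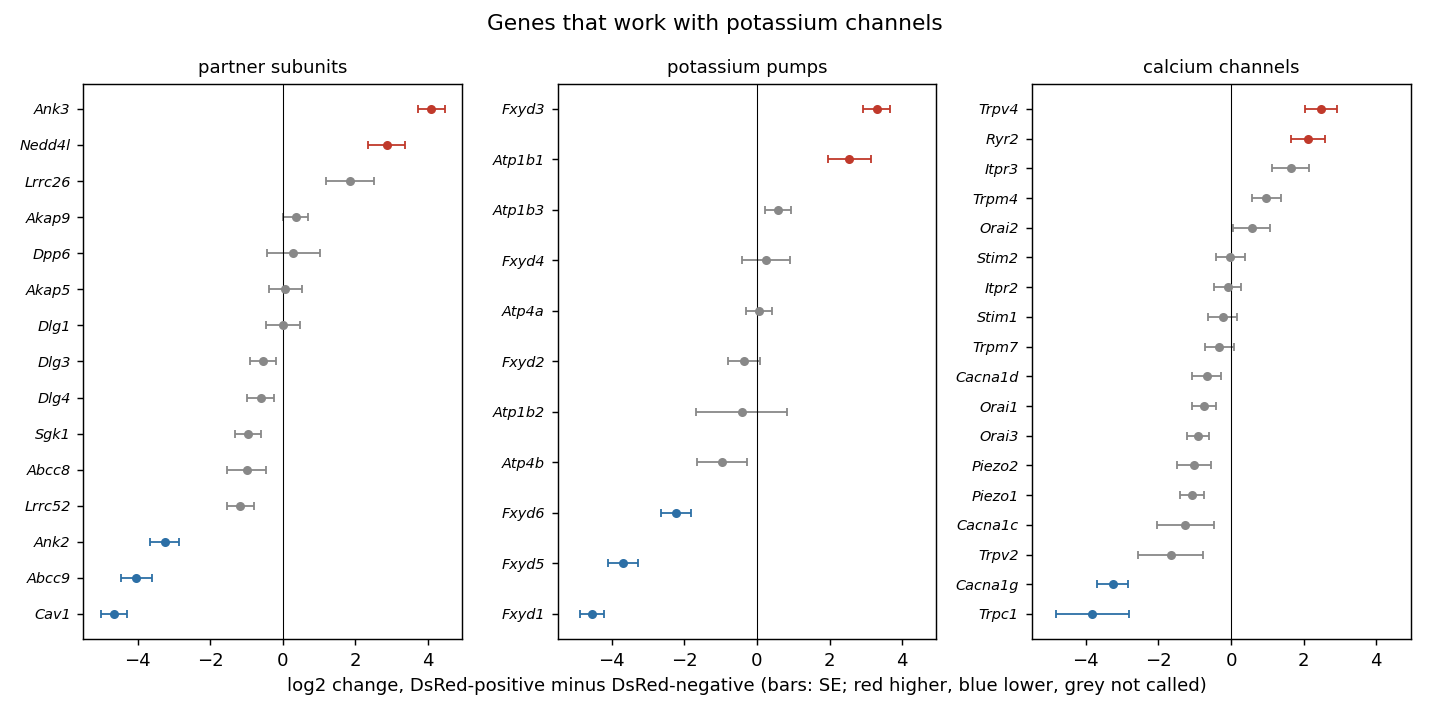
Log2 change (x axis, DsRed-positive minus DsRed-negative, bars are SE) of the tested genes (y axis) of 3 lists that work with potassium channels, with higher calls in red, lower calls in blue and genes not called in grey. Ank3 (4.09) and Ank2 (-3.26), and Fxyd3 (3.30) and Fxyd1 (-4.54), lie on opposite sides of 0.

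The calls differed in how far they depended on single arrays. Of the 13 called channel genes, 8 were called in all 6 fits that left out 1 array: Kcnk2, Kcnd3, Kcnc2, Kcnj8, Kcne4 and Kcnq5 among the lower genes and Kcnj15 and Kcnk1 among the higher ones. Kcnk6 and Kcne1 each lost the call in 1 fit, Kcnd1 and Kcnq3 in 3 and Kcnn4 in 5. The scaling between arrays did not end any of the 13 calls or turn its direction. The median log2 signal as deposited differed by -0.54 between the groups (DsRed-positive minus DsRed-negative), and with the values as deposited 4 channel genes were higher and 14 lower.

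**Figure D4:**
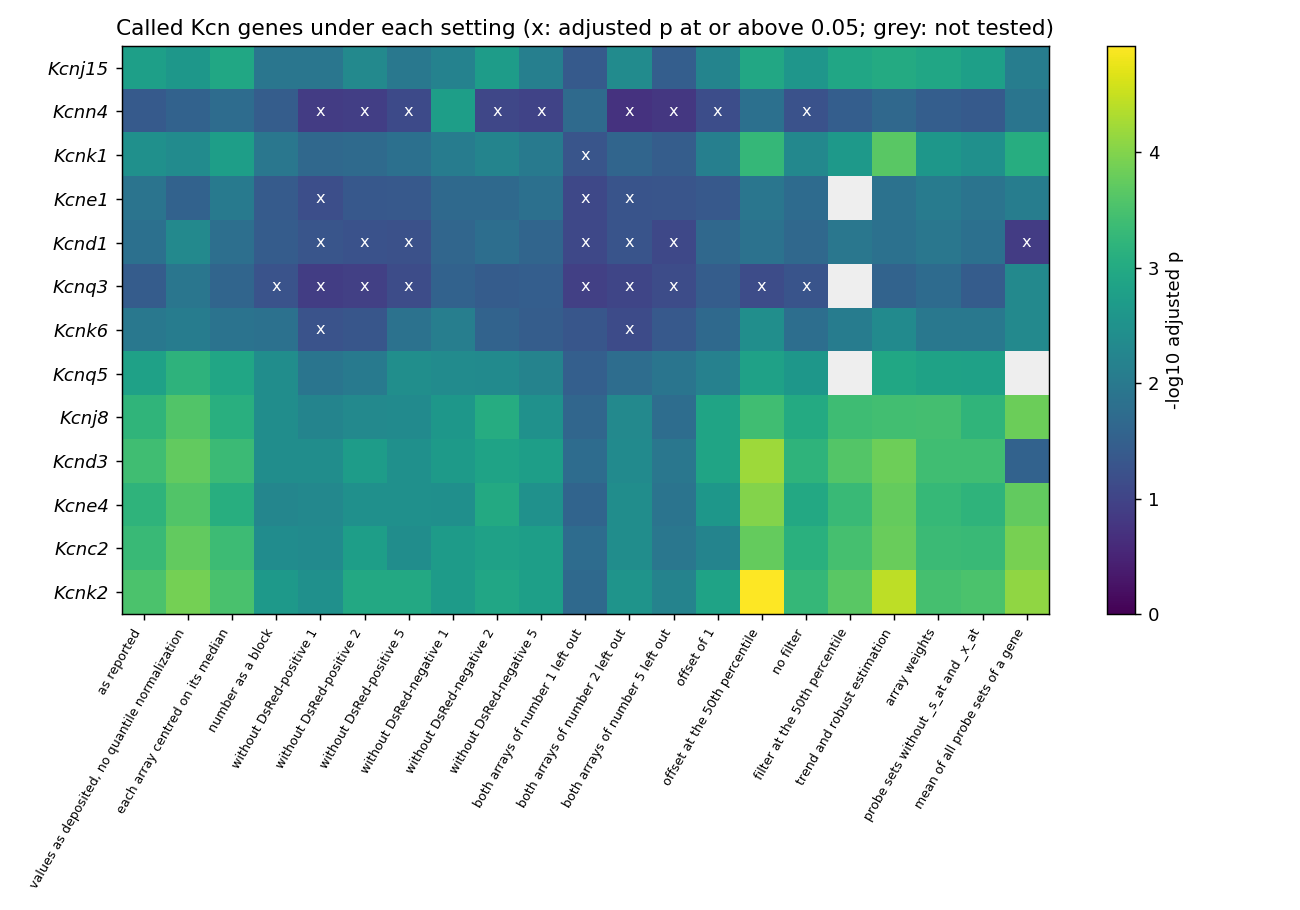
Minus log10 of the adjusted p (colour) of the 13 called potassium channel genes (y axis) under the reported setting and 20 alternatives (x axis), with a cross where the adjusted p is 0.05 or more and grey where the gene was not tested. Kcnj15 and the 6 lowest rows hold no cross, while Kcnn4 and Kcnq3 hold the most.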

How the data were processed

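RNA of postnatal day 7 bladder epithelial cells was amplified in 2 rounds and read on Affymetrix mouse arrays, per the labels' protocols. What the authors deposited was read as probe set intensity on a linear scale, since it was positive and reached 500654. The submitters' processing notes name GCOS, with version and settings not given in the sources used here; detection calls were not used. To the deposited intensity 39.84 was added, its 20th percentile, before log2 was taken. Array medians spanned 0.74, above the limit of 0.2, so quantile normalization followed; the offset shrinks the changes of dim genes.

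Of 45101 probe sets, 64 were controls, 34945 had 1 gene symbol (34741 brought up to date through the gene ID against RefSeq GRCm38.p6, 204 kept as given), 932 had several and 9160 none. The test took the 30175 probe sets whose mean exceeded 7.18, the 33rd percentile. Values of a gene are those of the brightest probe set, by mean of the 6 arrays, that names it alone. Differences were tested with limma 3.58.1 in R 4.3.3 (lmFit and eBayes, two-sided, Benjamini-Hochberg over all tested probe sets). The fit was tried on simulated arrays, with known changes given to probe sets well above the filter. That trial checked the mean estimates and does not cover dim genes or the rate of false calls. Where all arrays of a group lay at or below the control level, a fold is given as at least N-fold, each array of that group entering at its control level. The number of arrays limits the precision.

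Members and lists were chosen with earlier results of these data known. Named were Upk1b, all called members, the 8 brightest not called, and all called genes of 3 partner lists; others are said to be named after their values were seen, and Kcnq1, Abcc8, single cell type markers and the FXYD genes that were not called were also chosen then. Promoters came from RefSeq, which held one for 64 of the 84 genes. Same-numbered arrays deviated together with correlations of 0.15, 0.04 and 0.05, and the numbers were not used as pairs in the reported fit. These correlations were small but the highest for each array, and both arrays numbered 1 shared the Xist and Eif2s3y signals given above. The reported p-values thus leave a possible pairing out, and the number as a block was run as an alternative. Alternatives were the values as deposited, median centring, the number as a block, leaving out each array or each number, other offsets and filters, array weights, a trended robust fit, averaging a gene's probe sets, and no _s_at or _x_at probe sets.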

Additional observations from a re-analysis of the deposited data

How the results depend on the processing

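The 13 called channel genes kept their direction under all 20 alternatives in which they were tested; of 256 values, 225 kept the call and 31 lost it. The channel genes called higher numbered 4, and 2 without both arrays numbered 2; without 1 array they numbered 2 to 5, the 2 without DsRed-positive 1. Those called lower numbered 9, 14 with the values as deposited, and 6 to 10 without 1 array. Over all genes, 1310 were higher, 2568 with each array centred on its median, and 485, 681 and 523 without both arrays numbered 1, 2 and 5. Without 1 array they numbered 623 to 1263, with 623, 698 and 749 without DsRed-positive 1, 2 and 5. The lower genes numbered 1603, 758 without both arrays numbered 1, 903 without both numbered 5, and 1071 to 1485 without 1 array. Fits without arrays hold fewer samples; the cause of the other shifts was not tested. Higher genes made up 45.0% of all called genes, 37.6% with the values as deposited and 64.7% after median centring, and the median change of all genes was 0.04, -0.17 and 0.37.

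Some genes that were not called changed sign. Kcnj11 (-0.33) gave 0.10 after median centring. Kcnq1ot1 (0.04) gave -0.19 with the values as deposited, -0.14 and -0.17 without both arrays numbered 1 and 5, and -0.43 to 0.61 without 1 array. Kcnj6 (-0.23) gave 0.12 without both arrays numbered 1 and -0.41 to 0.028 without 1 array. Kcna7 (-0.33) gave 0.069 without both arrays numbered 2 and -1.03 to 0.19 without 1 array. Kcnip1, Kcnt1, Kcng2, Kcnip2, Kcnj3, Kcnk7 and Kcna5 were called under at least 1 alternative and not in the reported fit; Kcnip1 (1.65) was 2.40 without DsRed-negative 1 (adjusted p = 0.00847).

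The numbers 1, 2 and 5 are shared labels and every array correlated best with its own number, a hint of pairing from the data. Both arrays numbered 1 also shared Xist and Eif2s3y signals unlike those of the other arrays. With the number as a replicate block, 4 channel genes were higher and 8 lower, Kcnq3 and Ryr2 lost their calls (adjusted p = 0.0551 and 0.0526), and over all genes 1067 were higher and 1406 lower.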
